A study of Homo sapiens with 27 samples.

Results

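The 14 histone cluster genes of U937 cells described here, called members below, are among the 57905 genes in the count table. They were chosen by name and by level, and the level was read in control and matrine-treated libraries together. Each member is protein-coding in GENCODE 44, its symbol names a core histone of the clusters (H2AC, H2BC, H3C or H4C with a number) or a linker histone (H1 with a number), and has an FPKM above 0.5 in at least 3 of the 9 libraries. FPKM is the count scaled by the length of the gene and the total of the library. Of 72 annotated genes with such a symbol considered here, 36 were matched to the table by identifier; the other 36 were not analysed here. Of the genes matched, 6 had no count in any library, which allows at most 0.0164 CPM, the count scaled by the total alone, over the 9 libraries together (counting error only). The members were 2 of 9 matched H1 genes, 4 of 8 matched H2A genes, 5 of 10 matched H2B genes, 1 of 5 matched H3 genes and 2 of 4 matched H4 genes. The annotated genes considered numbered 9 for H1, 17 for H2A, 18 for H2B, 13 for H3 and 15 for H4. Just inside the level rule were H2BC21 and H4C11, each above 0.5 FPKM in 3 libraries, and just outside was H1-4, above it in 2.

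U937 is a human myeloid leukemia cell line with monocytic features. RNA was sequenced from control cells and from cells given 0.8 mg/mL matrine, a plant alkaloid, for 30 min or 24 h, with 3 libraries in each group and no genetic change in any. The comparisons ask which genes respond to matrine early and late. The labels do not say whether replicates were separate cultures, so the p-values measure only the spread between these libraries. The libraries held 17314931 to 21930018 counts. The control and 30 min libraries numbered 3 had the lowest summed level of the members in their groups, and results that rest on them are given with and without them. c-Myc (MYC), on which the study centres, was at -1.93 on the log2 scale at 30 min against control (edgeR, adjusted p = 2.7e-14). At 24 h it was at -2.29 (edgeR, adjusted p = 2.7e-17). Of 11 monocytic markers, CD14 and CSF1R were below 1 FPKM in every library, while 3 of the 9 tested were called higher at 24 h, where 15.1% of all tested genes were. MPO, among these 3, was high enough to be tested only through its 24 h libraries, with a mean of 1.84 FPKM against 0.313 in control cells. Of 11 matched markers of other cell types, 8 were below 1 FPKM in every library, 4 of them without a count. The marker list summed to 6.0 to 7.35 FPKM in the control and 30 min libraries and to 4.82 to 5.18 at 24 h.

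Histones H2A, H2B, H3 and H4 form the nucleosome core, and linker histone H1 binds the DNA where it enters and leaves. Most of their genes lie in clusters and are transcribed as cells copy DNA. Their mRNAs have no introns and end not in a poly(A) tail but in a stem-loop held by the stem-loop binding protein (SLBP), and they are degraded when replication stops. H1-10 is an exception, with a polyadenylated mRNA that is also made outside S phase.

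On GRCh38, 9 of the 14 members lie on chromosome 6, 4 on chromosome 1, and H1-10 alone on chromosome 3. The stem-loop was found in an annotated transcript of 13 members and not of H1-10. It was present in 69 of the 72 annotated histone cluster genes (95.8%) and in 93 of 20046 protein-coding genes (0.464%). These 13 are called stem-loop members below. The examples show each of the 4 stem-loop sequences found among members, as DNA with the 16 bases of the stem-loop in capitals and up to 5 bases on either side, from the GENCODE 44 transcripts.
H2BC21: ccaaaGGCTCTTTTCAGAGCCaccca
H2BC12: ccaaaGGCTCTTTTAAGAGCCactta
H2AC20: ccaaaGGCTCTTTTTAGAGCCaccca
H4C8: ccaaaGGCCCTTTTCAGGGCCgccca
The stem-loop of H2BC21 was shared by 7 members, that of H2BC12 by 3, that of H4C8 by 2 (both H4 genes), and H2AC20 alone had its own. In 12 of the 13 stem-loop members an annotated transcript ended 3 to 6 bases past the stem-loop, and H2AC6, H2AC25 and H4C8 also had transcripts that ran 1128, 1110 and 1655 bases beyond it. H2BC21 was the exception, with 1 annotated transcript that runs 1729 bases beyond it.

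H1-10 was the most abundant of the 14 genes described. In the control libraries it averaged 64.0 ± 8.01 FPKM (SD, n = 3) and lay above the other 13. Next came H2AC20 with 8.67 ± 2.7 and H2BC12 with 8.04 ± 0.57 FPKM, which overlapped each other, then H2AC25 with 4.94 ± 0.473 and H1-2 with 3.34 ± 0.308 FPKM, which did not. H2BC13 followed with 2.35 ± 1.27, a spread that overlapped that of H1-2 and of H2AC13 with 1.25 ± 0.727 FPKM. The remaining 7 averaged from 0.25 FPKM for H2BC21 to 1.01 FPKM for H2BC4. The order rests on the gene lengths behind the FPKM. For H2BC12 the length implied by count and FPKM was 820 bases against 495 bases of exons in GENCODE 44, and for H2AC25 it was 496 against 1850 bases. Scaled to the GENCODE lengths, the control means would be 13.3 for H2BC12, 7.67 for H2AC20 and 1.32 for H2AC25, which puts H2BC12 above H2AC20 and H2AC25 below H1-2 and H2BC13. For H2BC4 the value would be 0.291 in place of 1.01, and for H4C8 0.187 in place of 0.39. Fold changes use 1 length per gene and do not depend on it, but the FPKM rule and filter do. H1-10 held 66.3% of the summed FPKM of the 14 genes in control cells and 71.5% at 24 h. The libraries were described as prepared by poly(A) isolation or rRNA removal, so a level of a stem-loop mRNA cannot be told apart from how well it was captured. Of 15 listed RNAs that lack a poly(A) tail, 9 were matched to the table. Of these 9, 8 were below 1 FPKM in every library, and the exception was SNORD17, a small nucleolar RNA made from an intron. Their levels in the cells are not known, so these values cannot tell poly(A) isolation from rRNA removal.

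**Figure D1:**
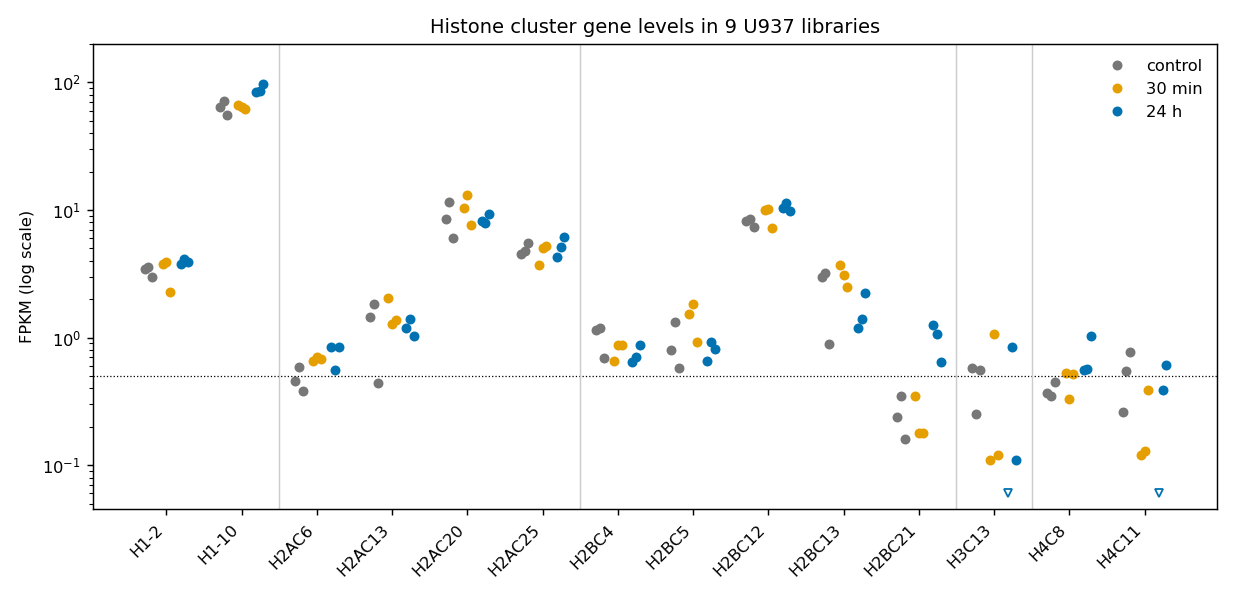
FPKM (log axis) of each of the 14 histone cluster genes, with 1 point per library: grey for control, orange for 30 min and blue for 24 h. Triangles mark a library listed at 0, grey lines divide H1, H2A, H2B, H3 and H4, and the dotted line is the 0.5 FPKM of the rule. H1-10 averages 64.0 FPKM in control cells and 89.3 FPKM at 24 h, and the H3 and H4 genes scatter around the dotted line.

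After 24 h of matrine treatment H1-10 mRNA was 1.35-fold higher than in control cells, short of the limit for a call (adjusted p below 0.05 and a change of at least 1.5-fold), and the median tested stem-loop member was near its control level. H2BC21, too low for the main test and singled out after its values were seen, was 3.59-fold higher when tested without a filter on low values. Of the 7 members tested at 24 h against control, none was called higher or lower by edgeR, DESeq2 or limma, and 2 (H1-10 and H2BC12) had an unadjusted p below 0.05. Of all tested genes edgeR called 15.1% higher and 11.2% lower. With no fold change limit, 3794 of the 12035 genes tested were higher and 3824 lower at an adjusted p below 0.05. The median log2 fold change was 0.04 over the 7 tested members, -0.03 over the 6 stem-loop members among them and 0.01 over all 12035 genes tested. After 30 min none of the 8 tested members was called by edgeR, DESeq2 or limma, none had an unadjusted p below 0.05, and 0.639% of all tested genes were called in either direction. The median log2 fold change was 0.23 over these 8, of which 7 were above 0. It was 0.26 over the 7 stem-loop members tested and -0.004 over all genes tested. With 1 library left out, the median ranged from -0.0062 to 0.51 for H2A and from 0.14 to 0.65 for H2B.

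H1-10 (chr3:129314771-129316286, minus strand) encodes H1.10, also called H1x. It measured 64.7, 71.7 and 55.7 FPKM in control cells, 66.7, 64.5 and 61.7 after 30 min, and 84.1, 86.2 and 97.8 after 24 h. The 24 h libraries all lay above the other 6, which overlapped one another. The share of all genes so separated at 24 h is not reported here. For H1-10 and the genes below such an order therefore only describes the values. The change at 24 h was 1.35-fold, 0.43 ± 0.0823 on the log2 scale (edgeR, adjusted p = 0.00011), which missed the 1.5-fold limit, and at 30 min it was 0.02 on that scale. Over the alternative analyses the 24 h value ranged from 0.33 to 0.51. The antisense gene H1-10-AS1 overlaps its exons and holds 10.7% of its 100-base windows, and since the strand setting of the counting is not stated, reads of the pair cannot be told apart.

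H1-2, on chromosome 6, encodes H1.2 and has a stem-loop. It measured 3.42, 3.6 and 3.0 FPKM in control cells, 3.74, 3.92 and 2.28 after 30 min, and 3.79, 4.16 and 3.88 after 24 h. The 24 h libraries lay above the control libraries by a small margin but not above those of 30 min. The log2 change at 24 h was 0.19 ± 0.219, with 2 SE on either side reaching from -0.25 to 0.63 (edgeR, adjusted p = 0.471). An increase of up to 0.63 on the log2 scale lay within its error.

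**Figure D2:**
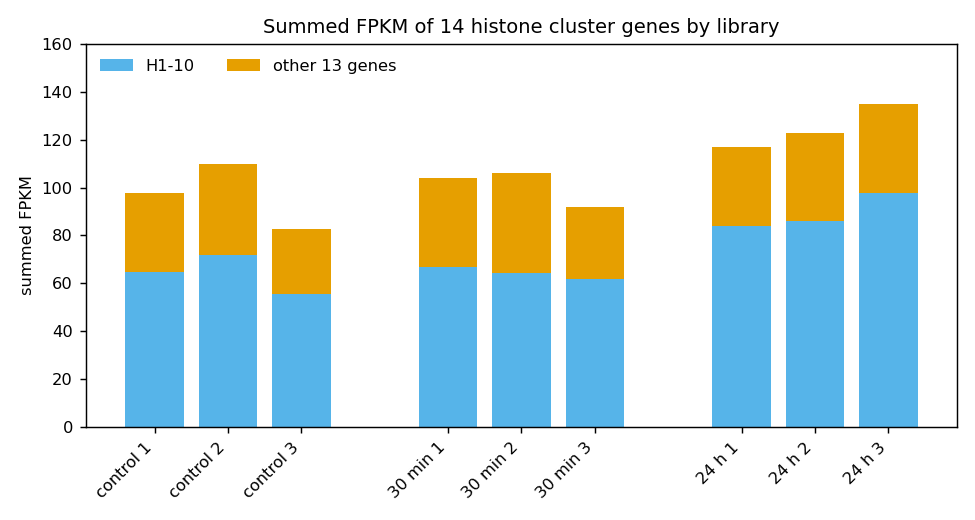
Summed FPKM of the histone cluster genes in each of the 9 libraries, as stacked bars of H1-10 (blue) and the other 13 genes (orange). The blue part lies between 55.7 and 71.7 FPKM in control cells and between 84.1 and 97.8 FPKM at 24 h, while the orange part stays between 26.9 and 41.7 FPKM in all libraries.

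The 13 stem-loop members summed to 32.9, 38.0 and 26.9 FPKM in control cells, 37.4, 41.7 and 30.0 after 30 min, and 33.1, 36.5 and 37.3 after 24 h. The groups overlapped. These sums rest on 300 to 551 counts per library, against 1452 to 3217 for H1-10. In these bulk samples the share of cells in S phase and the amount of histone mRNA per cell cannot be told apart.

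Of the H2A members, which pair with H2B in the nucleosome, none of the 3 tested was called at 24 h, with none at an unadjusted p below 0.05 and none called by DESeq2 or limma. H2AC20, the most abundant, measured 8.47, 11.5 and 6.08 FPKM in control cells, 10.3, 13 and 7.63 after 30 min, and 8.24, 7.87 and 9.22 after 24 h. The groups overlapped, and the spread was widest in the control and 30 min libraries. The log2 change at 24 h was -0.09 ± 0.224 (edgeR, adjusted p = 0.731). H2AC25, which lies away from the main clusters on chromosome 1, measured 4.56, 4.79 and 5.47 FPKM in control cells and 4.32, 5.15 and 6.18 at 24 h, with a log2 change of 0.04 ± 0.219 (edgeR, adjusted p = 0.887).

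H2AC13 measured 1.45, 1.85 and 0.44 FPKM in control cells, 2.06, 1.28 and 1.38 after 30 min, and 1.19, 1.39 and 1.03 after 24 h. The third control library held 4 counts of it against 16 and 19 in the others. Its log2 change at 24 h was -0.13 ± 0.434 (edgeR, adjusted p = 0.81), and 58.8% of its 100-base windows also occur in H2AC14, so its counts are uncertain. H2AC6 was too low for the test at a mean FPKM above 1. It measured 0.46, 0.59 and 0.38 FPKM in control cells, 0.66, 0.70 and 0.68 after 30 min, and 0.85, 0.56 and 0.85 after 24 h. H2AC6 was the 1 member of 14 whose 30 min libraries all lay above the control libraries, where 4.92% of all genes that met the level rule did so.

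Of the H2B members, H2BC12 was the most abundant. It measured 8.21, 8.5 and 7.4 FPKM in control cells, 9.95, 10.2 and 7.29 after 30 min, and 10.4, 11.4 and 9.88 after 24 h. The 24 h libraries lay above the control libraries, and those of 30 min overlapped both. The log2 change at 24 h was 0.34 ± 0.142, or 1.27-fold (edgeR, adjusted p = 0.0404), under the 1.5-fold limit. The adjusted p ranged from 0.0174 to 0.148 over the alternatives. Its exons share 22.5% of their 100-base windows with 2 other genes.

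H2BC13 and H2BC5 had their highest means after 30 min, as did the H2A genes H2AC20 and H2AC13. H2BC13 measured 2.97, 3.19 and 0.89 FPKM in control cells, 3.72, 3.12 and 2.49 after 30 min, and 1.18, 1.41 and 2.22 after 24 h. All 24 h libraries lay below all 30 min libraries, and the third control library lay below every other. H2BC5 measured 0.80, 1.32 and 0.58 FPKM in control cells, 1.52, 1.84 and 0.93 after 30 min, and 0.65, 0.93 and 0.82 after 24 h. Its 30 min and 24 h libraries met at 0.93 FPKM.

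Between 30 min and 24 h both were called lower, by -1.02 ± 0.379 for H2BC13 (edgeR, adjusted p = 0.0229) and -0.92 ± 0.355 for H2BC5 (edgeR, adjusted p = 0.0286) on the log2 scale. They were 2 of the 8 members tested there, and 11.5% of all tested genes were called lower. H2BC5 passed the filter there only through its 30 min libraries, with a mean of 1.43 FPKM against 0.80 FPKM at 24 h. Its place among the genes tested is thus no support for the change. With no filter on low values H2BC5 was also called lower, at -0.97 (edgeR, adjusted p = 0.027). No tested member was called higher by edgeR, DESeq2 or limma, where edgeR called 15.4% of all tested genes higher, and 3 of the 8 had an unadjusted p below 0.05. With no fold change limit, 3894 of 11981 genes were higher and 3903 lower at an adjusted p below 0.05. DESeq2 called 1 of the 8 lower and limma none, and with 1 library left out at a time the number called lower ranged from 0 to 2. It was 0 without 30 min replicate 1 or 24 h replicate 1, and 1 without 30 min replicate 2, 24 h replicate 2 or 24 h replicate 3. Against control, H2BC13 at 24 h was at -0.62 ± 0.402 (edgeR, adjusted p = 0.188), and without control replicate 3 it was called lower at -0.98 (edgeR, adjusted p = 0.0229). At 30 min the values against control were 0.39 ± 0.358 for H2BC13 (edgeR, adjusted p = 0.776) and 0.67 ± 0.352 for H2BC5 (edgeR, adjusted p = 0.518).

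**Figure D3:**
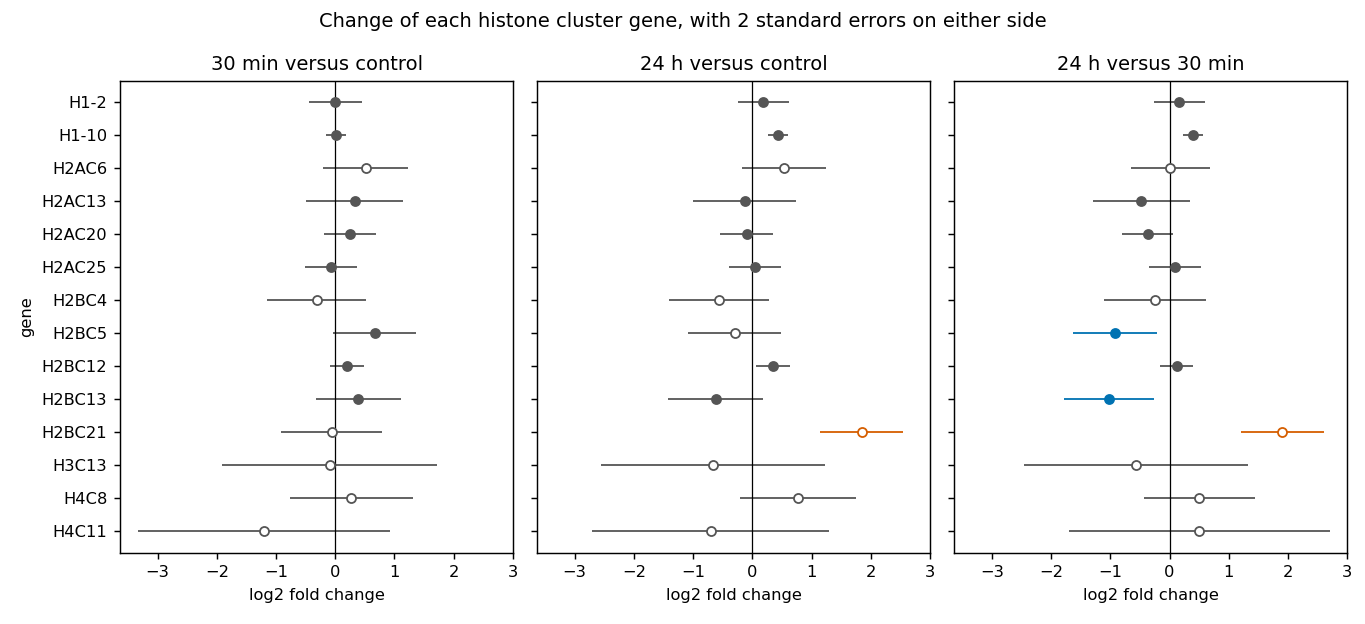
Log2 fold change (horizontal axis) of each histone cluster gene (vertical axis) in the 3 comparisons, with lines of 2 standard errors on either side. Filled points passed the filter of a mean FPKM above 1, open points are from the test with no filter on low values, orange marks genes called higher and blue genes called lower. H2BC13 and H2BC5 are called lower at 24 h against 30 min, H2BC21 higher against both other groups, and the lines of H3C13 and H4C11 are the widest.

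H2BC21 encodes an H2B protein from the chromosome 1 cluster (chr1:149884459-149886682, minus strand). It measured 0.24, 0.35 and 0.16 FPKM in control cells, 0.35, 0.18 and 0.18 after 30 min, and 1.25, 1.06 and 0.64 after 24 h. These are 11, 15 and 6 counts, 17, 8 and 8 counts, and 57, 48 and 31 counts. The 24 h libraries all lay above the other 6. Higher 24 h means were also seen in matched H2B genes below the level rule. H2BC15 averaged 0.073 FPKM in control cells and 0.30 at 24 h, H2BC18 0.073 and 0.163, and H2BC26 0 and 0.143. H2BC11 averaged 0.34 and 0.287, and H2BC1 had no count. No test of these genes is given here.

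Its mean was too low for the main test, and it entered the members through the 24 h libraries alone, so its place among them is no support for the change. In a test of all 28848 genes with a count and no filter on low values, the log2 change at 24 h against control was 1.84 ± 0.352, or 3.59-fold (edgeR, adjusted p = 1.2e-06), where 9.03% of genes were called higher. At 30 min it was -0.06 ± 0.426 (edgeR, adjusted p = 1). In the same unfiltered test it was called higher by DESeq2 (adjusted p = 0.000352) and limma on log2(FPKM + 0.1) (adjusted p = 0.00903) too. It was also called higher by edgeR with each library left out in turn, at log2 values from 1.61 to 2.17. All these tests reuse the counts for which H2BC21 was singled out, so they describe its values and add no separate support. The length by which its counts were divided, 2213 bases, is near the 2224 bases of its exons, so the counted gene included the stretch beyond the stem-loop. Where along the gene the reads fell cannot be told apart from counts per gene.

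H2BC21 and H2AC20 are transcribed away from each other from starts 236 bases apart. The promoter of H2BC21 is printed because the same stretch lies before both genes, and their counts moved differently. It runs from 250 bases before the start to 50 after it (chr1:149886633-149886932, minus strand, RefSeq, GRCh38.p14). In capitals are 3 motifs on either strand. The CCAAT box reads ATTGG where it lies on the opposite strand. The TATA box, searched as TATAAA, reads TTTATA there. The octamer, searched as ATTTGCAT, occurs once, on the printed strand.
H2BC21 promoter: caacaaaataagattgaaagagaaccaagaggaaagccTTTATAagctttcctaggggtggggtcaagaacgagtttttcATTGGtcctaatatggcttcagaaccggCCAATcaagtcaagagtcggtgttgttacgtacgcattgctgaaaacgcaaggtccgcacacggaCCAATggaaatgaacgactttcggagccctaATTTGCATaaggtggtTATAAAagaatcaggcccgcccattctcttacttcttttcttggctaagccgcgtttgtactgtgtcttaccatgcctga
TATAAA begins 30 bases and the octamer 46 bases before the start of H2BC21. The match to TATAAA at 212 bases before it is, read on the other strand, the one 29 bases before the start of H2AC20.

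RefSeq promoters were matched for all 14 members. CCAAT was found in 11 of the 14 against 34.6% of all 35116 promoters of that length, TATAAA in 11 against 11.5%, and the octamer in 5 against 1.77%. CACGTG, the core motif bound by c-Myc with its partner Max, was found in none of the 14 and in 7.26% of all promoters. These are matches to letters in a window of 300 bases. The pairs H2BC21 with H2AC20, H2BC4 with H2AC6 and H2BC13 with H2AC13 share part of this window, so the same site can count for both genes. TATAAA began 25 to 35 bases before the start in 10 of the 14 members. The match of H2BC4, 220 bases before its start, is the site 31 bases before the start of H2AC6. The octamer was present in H2AC20, H2AC6, H2BC12, H2BC21 and H2BC4, and H1-10 and H4C11 held TATAAA without CCAAT.

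H2BC21 counts per 100 counts of H2AC20 were 14.3, 15.5 and 13 in control cells, 17.2, 6.84 and 11.8 after 30 min, and 77.0, 68.6 and 35.2 after 24 h. The 24 h ratios lay above the other 6, and the mean log2 ratio was 1.95 higher than in control. It was not tested, since H2BC21 was singled out for these counts. H2AC20 shares 12.7% of its 100-base windows with 2 other genes, and H2BC21 shares 2.59% with 5 others. H2BC4 and H2AC6, which start 246 bases apart, differed in the other direction. H2BC4 counts per 100 of H2AC6 were 125, 100 and 90.9 in control cells, 50, 62.5 and 65.2 after 30 min, and 37.9, 63.2 and 51.6 after 24 h. The control libraries lay above the other 6, and the log2 ratio at 24 h differed from that in control by -1.04 (exact two-sided permutation test, p = 0.1, the smallest that 3 against 3 libraries can give, and 0.2 adjusted over the 2 ratios tested).

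Only 10 to 31 counts per library stand behind each value of the H2BC4 and H2AC6 ratio, and exons of both genes overlap those of other genes. For H2BC13 and H2AC13, with starts 244 bases apart, the ratio was 175, 147 and 175 per 100 in control cells, 154, 207 and 153 after 30 min, and 84.6, 86.7 and 183 after 24 h. These groups overlapped (24 h against control, exact two-sided permutation test, p = 0.4).

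**Figure D4:**
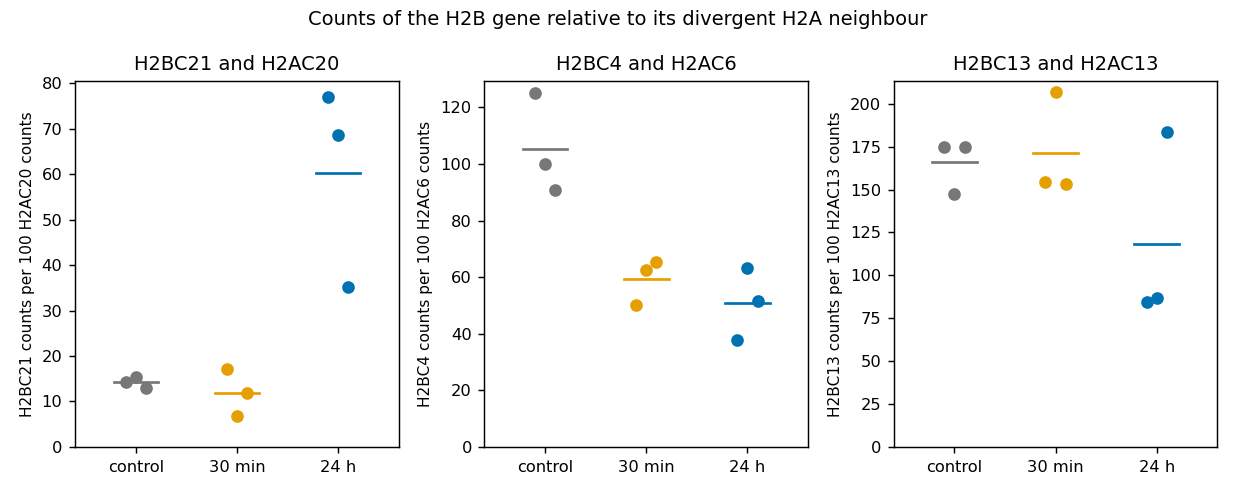
Counts of the H2B gene per 100 counts of its divergent H2A neighbour in each library (points) and the group mean (bar), for the 3 neighbouring pairs among the members. H2BC21 to H2AC20 lies between 6.84 and 17.2 in control and 30 min libraries and between 35.2 and 77.0 at 24 h, H2BC4 to H2AC6 is highest in control cells, and H2BC13 to H2AC13 overlaps between groups.

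The rest of the H2B, H3 and H4 members were low. H2BC4 measured 1.15, 1.18 and 0.69 FPKM in control cells, 0.66, 0.88 and 0.88 after 30 min, and 0.64, 0.71 and 0.88 after 24 h, with overlap. H3C13, the sole H3 member, measured 0.58, 0.25 and 0.56 FPKM in control cells, 0.11, 1.07 and 0.12 after 30 min, and 0, 0.84 and 0.11 after 24 h. It had 0 to 9 counts per library, and a change was not detectable at this depth. Its exons share 46.2% of their 100-base windows with other genes.

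Both H4 members encode the same core histone. H4C8 measured 0.37, 0.35 and 0.45 FPKM in control cells, 0.53, 0.33 and 0.52 after 30 min, and 0.56, 0.57 and 1.02 after 24 h. The 24 h libraries lay above all others, but only by 0.56 against 0.53 FPKM at the closest. They held 12, 12 and 23 counts against 7 to 12 in the other 6. With no filter on low values the log2 change against control was 0.77 ± 0.49 (edgeR, adjusted p = 0.271). H4C8 was above 0.5 FPKM in 5 libraries and would not meet the level rule without those of 24 h. Its place among the members is thus no support for a change. H4C11 measured 0.26, 0.55 and 0.77 FPKM in control cells, 0.12, 0.13 and 0.39 after 30 min, and 0, 0.39 and 0.61 after 24 h, on 0 to 5 counts, and 90.7% of its windows also occur in H4C12.

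Genes that act on histone mRNA and histone proteins were read from lists chosen for their known roles. At 24 h against control edgeR called 11.2% of all tested genes lower and 15.1% higher, and the median over all of them was 0.01 on the log2 scale. With no fold change limit, 3794 of 12035 genes were higher and 3824 lower at an adjusted p below 0.05. An unadjusted p below 0.05 was thus common among all genes. Of 8 tested variant histones outside the clusters, most have polyadenylated mRNAs. None of the 8 was called at 24 h by edgeR, DESeq2 or limma, and 6 had an unadjusted p below 0.05. H2AZ1, the main H2A.Z gene, measured 216, 244 and 217 FPKM in control cells and 161, 165 and 168 at 24 h, 0.705 times the control level (log2 -0.50, edgeR, adjusted p = 2.4e-07). H2AJ was at 0.45, H2AZ2 at 0.35 and H3-3B, which encodes the replacement histone H3.3, at 0.02 on the log2 scale.

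Of 16 genes for histone gene transcription and pre-mRNA processing, 2 fell at 24 h, near the share of all genes, and none was called higher by edgeR, DESeq2 or limma. The list's median was -0.30, 13 had an unadjusted p below 0.05, and limma called 1 of the list. Those that fell were CSTF2 (log2 -0.84, edgeR, adjusted p = 1.6e-09), a cleavage factor subunit, and CPSF3 (log2 -0.61, edgeR, adjusted p = 2.4e-08), the endonuclease that cuts histone pre-mRNA. ZNF473, a protein bound to the U7 processing particle, was at -0.54. SLBP measured 114, 115 and 111 FPKM in control cells and 97.8, 104 and 104 at 24 h, a log2 change of -0.20 (edgeR, adjusted p = 0.00305) below the 1.5-fold limit. NPAT, the coactivator of histone genes, was at -0.07 (edgeR, adjusted p = 0.57) and CASP8AP2, which works with it, at -0.20 (edgeR, adjusted p = 0.0928).

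Of 9 genes for histone mRNA decay, 1 fell, again near the share of all genes, the exosome helicase MTREX (log2 -0.84, edgeR, adjusted p = 2.0e-10), while the ribonucleases DIS3 and XRN1 were at -0.55 and 0.33. Of 25 histone chaperones and deposition factors, 6 fell, against the 11.2% of all genes, none was called higher by edgeR, DESeq2 or limma, and the median was -0.30. The largest changes were those of IPO4 (log2 -1.33), an importin for histones H3 and H4, TONSL (log2 -0.98), which binds newly made histone H4, and ASF1A (log2 -0.77), a chaperone of H3 and H4.

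Of 15 genes for S phase entry and replication, with a median of -0.39, 2 fell, near the share of all genes. They were CDC25A (log2 -0.77), a phosphatase that activates CDK2, and MCM4 (log2 -0.65), a subunit of the replicative helicase. MCM6 was at -0.46 and CCNE2, cyclin E2, at 0.35. Of 6 tested genes of cell cycle arrest, 3 rose, against the 15.1% of all genes, the CDK inhibitors CDKN1A (5.92-fold), CDKN2C (2.13-fold) and CDKN2D (2.09-fold), and GADD45A fell at 24 h and at 30 min. GADD45A was the 1 gene of these lists called at 30 min.

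The summed FPKM of the S phase list ranged from 1462 to 1475 in control cells, from 1490 to 1516 after 30 min and from 1268 to 1302 after 24 h. The sum of the 13 stem-loop members overlapped between the same groups. The list of RNAs without a poly(A) tail had SNORD17 as its single tested gene, which measured 35.7, 26.4 and 31.9 FPKM in control cells and 13.1, 10.8 and 13.9 at 24 h (log2 -1.36, edgeR, adjusted p = 2.7e-07). Of the monocytic markers, MPO was at 2.5, ITGAM at 1.25 and ITGB2 at 0.93 on the log2 scale at 24 h. MPO passed the filter only through its 24 h libraries and measured 0.21, 0.44 and 0.29 FPKM in control cells. SPI1, a myeloid transcription factor, was at -0.32 (edgeR, adjusted p = 0.000463) and LYZ, lysozyme, at -0.31 (edgeR, adjusted p = 2.9e-05). Both were under the 1.5-fold limit. CD33 was at -0.07. Of 3 tested markers of other cell types, PAX5 fell by 1.62 on the log2 scale, and KLF1 was at -0.06. Their part in the changes of H1-10 and H2BC21 was not tested.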

How the data were processed

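Counts and FPKM per gene were deposited by the authors in 1 table of 9 U937 libraries; 18 further samples of HL-60 and K562 cells were not analysed here. Per the labels' processing notes and the study's methods, the authors trimmed reads with cutadapt 1.9.1, mapped them with HISAT2 2.0.1 and counted them with HTSeq 0.6.1. The build is GRCh37 in the processing notes and hg38 in the methods, and strand and multi-mapping settings are not given in the sources used here. Gene names came from GENCODE 44 (GRCh38) by identifier, matching 51996 of 57905. Coordinates are those of GENCODE 44 and RefSeq, and no sequence was read by coordinates.

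The counts of all 9 libraries were fitted together with edgeR 4.0.16 (R 4.3.3, TMM, quasi-likelihood test). Genes with a mean FPKM above 1 over the 6 libraries compared were tested, p-values were adjusted by Benjamini-Hochberg over all of them, and a call required both an adjusted p under 0.05 and a 1.5-fold difference. DESeq2 1.42.0, limma 3.58.1, other filters, scalings and left-out libraries were alternatives. The ratios of neighbouring genes use counts plus 0.5. A test on simulated data with known changes preceded the fit. Results for 1 further gene that met the rule for members and for 1 marker are not reported here. The members and lists were chosen with earlier results of these data known. Genes named beyond the members were SLBP, NPAT, CASP8AP2, H2AZ1, H3-3B, CCNE2, CDKN1A and MYC and up to 3 genes per list with the largest change at 24 h; GADD45A, SPI1, LYZ and CD33 were named after their values were seen. Depth sets the precision: stem-loop members held 0 to 191 counts per library. Replicates of a group differed by more than sampling noise.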

Additional observations from a re-analysis of the deposited data

Results flagged for a closer look

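Differences between the responses at 24 h and at 30 min, tested directly between those libraries, were found for 2 members. H2BC13 was lower at 24 h by -1.02 on the log2 scale (edgeR, adjusted p = 0.0229) and H2BC5 by -0.918 (edgeR, adjusted p = 0.0286), with the limits given for both above.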

How the results depend on the processing

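No member was called at 30 min under any alternative.

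Members higher at 24 h against control numbered 1 (H2BC21) with no filter or with the level rule as filter, which it passes through its 24 h libraries alone, and 2 with no fold change limit; against 30 min they numbered 1 under these 3 settings. Members lower at 24 h against control ranged from 0 to 1 with 1 library left out and numbered 1 without control replicate 3 and 30 min replicate 3, an alternative chosen after seeing the data. Members lower against 30 min numbered 0 with limma with either pseudocount, 1 with DESeq2 or a fold change of at least 2, and 0 to 2 with 1 library left out. They also numbered 0 with a mean FPKM above 5, a filter that H2BC13 and H2BC5 cannot pass, so neither was tested there.

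Median log2 values also moved. With 1 library left out they ranged at 30 min from -0.0062 to 0.51 (H2A), at 24 h against control from 0.22 to 0.37 (H1), -0.29 to 0.14 (H2A) and -0.35 to 0.0028 (H2B), and against 30 min from 0.16 to 0.35 (H1) and -0.55 to -0.18 (H2A). Limma gave 0.066 and 0.027 (H2A, pseudocounts 0.1 and 1) at 24 h against control, and -0.26 and -0.21 (H2A), with pseudocount 0.1 also 0.38 (H1) and with pseudocount 1 -0.42 (H2B), against 30 min. Library totals alone gave 0.36 (H1) against 30 min. Without control replicate 3 and 30 min replicate 3 the H2A median was 0.047 at 30 min, -0.29 at 24 h and -0.55 against 30 min, the H2B median at 24 h was -0.35, and the H1 median was 0.22 at 24 h and 0.16 against 30 min. Summed FPKM over control with 1 library left out ranged from 0.943 to 1.07 (H1, 30 min), 0.929 to 1.14 (H2A, 24 h) and 1.05 to 1.27 (H2B, 24 h), and was 1.27 for H2B with CPM.

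Values near 0 reversed: H1-10 at 30 min (-0.077 to 0.11 with 1 library left out, -0.043 without those libraries), H2AC25 at 24 h (-0.027 with no filter, -0.12 to 0.17 with 1 library left out), and H2AC20 and H2AC13 at 24 h (0.0057 and 0.14 with limma at pseudocount 0.1, 0.0013 and 0.027 at 1, -0.29 to 0.14 and -0.51 to 0.23 with 1 library left out).

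All genes called at 30 min (higher and lower) numbered 28 and 95 with no filter, 34 and 154 with no fold limit, 1 and 23 at 2-fold; 7 were higher with a mean FPKM above 5 or limma with pseudocount 1, and 9 to 18 with 1 library left out. At 24 h against control they numbered 869 and 808 with a mean FPKM above 5, 3794 and 3824 with no fold limit, and 765 and 355 at 2-fold; against 30 min 913 and 787, 3894 and 3903, and 777 and 345, and 820 were lower with limma at pseudocount 1.

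The causes were not tested. Replicate numbers did not pair the libraries: same-numbered deviations correlated from -0.16 to 0.10, and not every library correlated best with its own number. With the replicate block 1815 genes were higher and 1343 lower at 24 h against control, and no call of a member changed.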
